A study of Rattus norvegicus with 90 samples.

Results

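The libraries described here are the 6 injured and control libraries of the P12 intravenous run, 3 of each, out of 90 libraries in the series. They were chosen by their sample titles and not by any measured value. All were made from microglia, the resident macrophages of the brain, of male Wistar Han rats, enriched with beads against CD11b/c from perfused and dissociated brains without olfactory bulbs and cerebellum. For the injured group, recombinant IL-1β of the mouse was injected into the peritoneum of the pups at 20 µg per kg, 2 times a day from postnatal day (P) 1 to P4 and once on P5. Control pups had PBS on the same schedule. Both groups were then given a sham of PBS into a vein at P10, and brains were collected 48 h later, at P12. Neither group received cells. The other 9 libraries of the run came from IL-1β-exposed pups that were also given mesenchymal stromal cells of human umbilical cord. The doses were 20, 50 and 125 M per kg (groups HuMSC20, HuMSC50 and HuMSC125), with 3 libraries each. These libraries enter the estimate of the spread and, for the genes that passed the test, are given side by side. The labels do not say whether replicates come from separate animals, and p-values here cover only the variation among the samples, which may be technical.

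Interleukin 1 beta is a cytokine that binds the receptor IL-1R1 with its partner IL-1RAP, signals through MyD88 to NF-kB, and is held in check by the receptor antagonist encoded by Il1rn. Given to newborn rodents it models the systemic inflammation that accompanies preterm birth, in which microglia take on an inflammatory state while oligodendrocytes mature. Microglia are recognised by genes such as P2ry12, Tmem119 and Cx3cr1, and carry inhibitory receptors that set the threshold for immune signalling. The comparison asked what was left of the IL-1β exposure in microglial RNA at P12, a week after the last injection.

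Total counts were 18.8, 19.7 and 13.4 M in the control libraries and 17.7, 17.4 and 42.5 M in the injured libraries, so injured replicate 3 was the deepest of the run and control replicate 3 the shallowest. Mitochondrially encoded genes took 4.39, 4.62 and 5.07 percent of control counts and 5.43, 5.11 and 5.73 percent of injured counts, with every injured library above every control library. The part of this difference in the results was not tested. Across genes, log2 counts per M (CPM) correlated between replicates of a group with r from 0.979 to 0.991. The biological coefficient of variation over the 15 libraries was 0.127, the lowest of the 6 runs (0.147 to 0.235 in the others). Over the control and injured libraries alone it was 0.1474, which was not the lowest (0.1305 to 0.1966 in the other runs). Microglial markers were abundant, with P2ry12 at 1980 to 2390 CPM in the 6 libraries and Csf1r, the receptor that microglia need to survive, at 8450 to 9730 CPM.

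Of 13874 genes tested, 2 passed an adjusted p of 0.05 (edgeR, Benjamini-Hochberg), or 0.0144 percent, and both were lower in injured libraries. They were Cd5, a scavenger receptor family glycoprotein known from T cells and B-1 cells that dampens antigen receptor signalling, and Lag3, an inhibitory receptor related to CD4 that binds MHC class II. At an unadjusted p under 0.05 there were 1208 genes (8.71 percent), 616 higher and 592 lower in injured libraries. In 1585 genes (11.4 percent) all injured libraries lay on 1 side of all control libraries. Of the 13874 genes, 7132 had a positive value, and the median log2 fold change over all genes was 0.01.

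**Figure D1:**
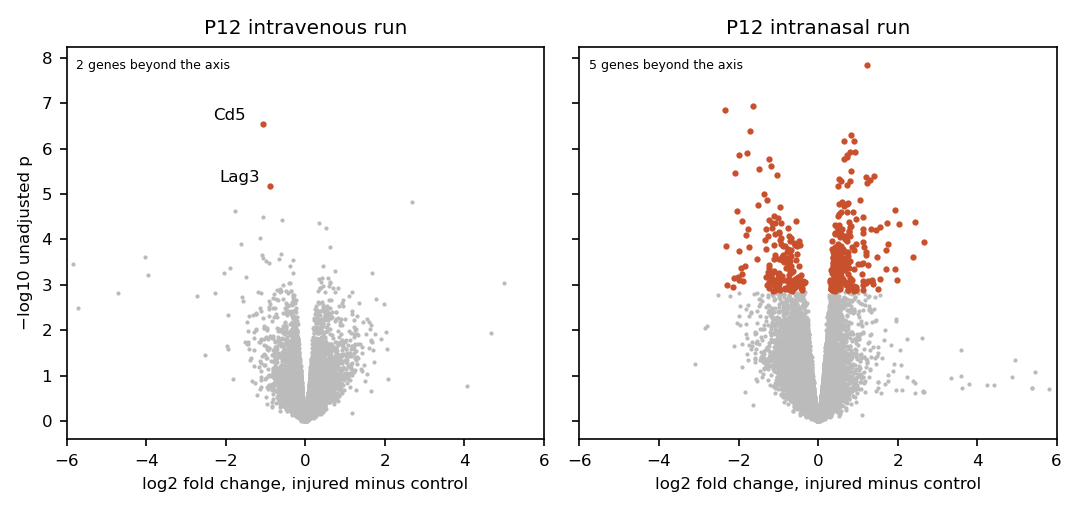
Each point is a gene, with the log2 fold change of injured against control on the x axis and the −log10 unadjusted p on the y axis, for the P12 intravenous run (left) and the P12 intranasal run (right) on the same axes. Coloured points passed an adjusted p of 0.05, which were 2 genes on the left and 383 on the right.

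Cd5 (ENSRNOG00000020872) stood at 17.2, 17.9 and 19.6 CPM in control libraries and at 8.27, 10.3 and 7.8 CPM in injured libraries. The groups did not overlap, and the highest injured library was well below the lowest control library. The log2 fold change was -1.06 ± 0.12 (SE, n = 3 against 3), with a 95% interval from -1.32 to -0.79 and an edgeR adjusted p of 0.00396. Lag3 (ENSRNOG00000021334) stood at 10.1, 11.6 and 10.3 CPM in control libraries and at 5.96, 5.17 and 6.08 CPM in injured libraries. Again every injured library was below every control library. Its log2 fold change was -0.89 ± 0.13 (SE, n = 3 against 3), with a 95% interval from -1.17 to -0.61 and an edgeR adjusted p of 0.0456. In bulk samples, fewer cells of a type and less RNA per cell cannot be told apart.

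Both calls depended on the libraries and the model. With the spread of all 36 control and injured libraries of the series, the adjusted p was 0.113 for Cd5 and 0.618 for Lag3, and with the replicate block it was 0.0097 and 0.0538. With the 6 libraries alone, edgeR called 0 genes (728 at an unadjusted p under 0.05), and the adjusted p was 0.152 for Cd5 and 0.333 for Lag3, at log2 fold changes of -1.05 and -0.89. Without injured replicate 1 or injured replicate 3 it called 0 genes as well (985 and 756 at an unadjusted p under 0.05), with an adjusted p of 0.0555 and 0.0666 for Cd5 and 0.176 and 0.213 for Lag3. When injured replicate 2, control replicate 2 or control replicate 3 was left out, Cd5 passed and Lag3 did not (adjusted p = 0.101, 0.101 and 0.126). DESeq2 called 29 genes, 10 higher and 19 lower, Cd5 and Lag3 among them.

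The 9 libraries of IL-1β-exposed pups that had received cells lay on the same side. Cd5 was at 12.3, 11.5 and 10.6 CPM in HuMSC20, at 11.1, 10.4 and 9.9 CPM in HuMSC50 and at 11, 10.4 and 11.6 CPM in HuMSC125. Lag3 was at 5.74, 7.32 and 7.0 CPM in HuMSC20, at 5.47, 6.29 and 5.73 CPM in HuMSC50 and at 5.96, 5.71 and 5.83 CPM in HuMSC125. For both genes, all 12 libraries of IL-1β-exposed pups were thus below all 3 controls. These comparisons share the control libraries with the injury comparison. Against control, the log2 fold changes of Cd5 at the rising doses were -0.67, -0.80 and -0.73 (edgeR adjusted p = 0.0574, 0.0078 and 0.0376) and those of Lag3 -0.67, -0.87 and -0.87 (edgeR adjusted p = 0.0574, 0.0078 and 0.0223). Against injured, Cd5 was higher by 0.39, 0.25 and 0.33 and Lag3 by 0.22, 0.02 and 0.02 on the log2 scale, none of which passed.

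**Figure D2:**
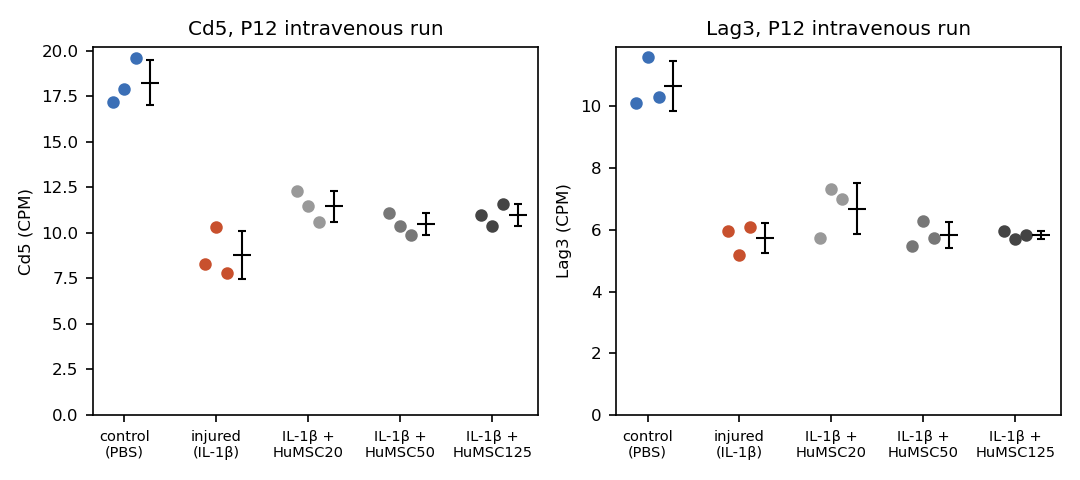
Points show CPM of Cd5 (left) and Lag3 (right) in each of the 15 libraries of the P12 intravenous run by group, and bars the mean ± SD (n = 3). The control libraries sit at 17.2 to 19.6 CPM for Cd5 and 10.1 to 11.6 CPM for Lag3, above every library of the other 4 groups.

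The other 5 runs, which share no library with this one, give values of both genes in other libraries. At P7, Cd5 was at 13.7, 19.6 and 25.9 CPM in control and 7.82, 9.57 and 8.74 CPM in injured libraries of the intranasal run, and at 15.2, 15.7 and 14.8 against 5.31, 7.73 and 6.5 CPM in the intravenous run. In the P12 intranasal run it was at 12.4, 14.8 and 14.4 against 9.34, 8.43 and 8.68 CPM. In these 3 runs too, no injured library reached a control library. The log2 fold changes were -1.17 ± 0.24 (edgeR adjusted p = 0.0102), -1.22 ± 0.23 (0.158) and -0.66 ± 0.16 (0.0454), so that Cd5 passed in both intranasal runs and did not pass in the P7 intravenous run. At P22 the groups overlapped in both routes, with 0.01 ± 0.25 in the intranasal and -0.21 ± 0.32 in the intravenous run (SE, n = 3 against 3), and control libraries at 5.61 to 8.61 CPM.

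Lag3 had negative values in the same runs without passing in any of them. The log2 fold change was -0.85 ± 0.25 in the P7 intranasal, -0.90 ± 0.21 in the P7 intravenous and -0.67 ± 0.26 in the P12 intranasal run (edgeR adjusted p = 0.0575, 0.256 and 0.16). In the P7 intravenous run the groups did not overlap (10.7, 10.3 and 9.24 CPM in control, 5.19, 5.49 and 5.57 CPM in injured), while in both others 1 injured library reached into the control range. At P22 the values were 0.24 ± 0.12 and -0.41 ± 0.23, with opposite signs in the 2 routes and neither passing.

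Differences of the injury effect were tested directly in a fit of the 36 control and injured libraries of all runs. The Cd5 effect of the P12 intravenous run minus that of P22 intravenous was -0.82 ± 0.30 on the log2 scale (95% interval -1.43 to -0.21, edgeR adjusted p = 0.626), so a difference between P12 and P22 was not shown. The same difference against P7 intravenous was 0.18 ± 0.29 (interval -0.42 to 0.78) and that against P12 intranasal -0.39 ± 0.30 (interval -1.001 to 0.221). For Lag3 they were -0.45 ± 0.33, 0.02 ± 0.33 and -0.21 ± 0.34, and none passed. Age and route coincide with the sequencing run, and a different dissociation kit was used at P7. Differences across runs, in levels or in injury effects, thus cannot be assigned to any of these.

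**Figure D3:**
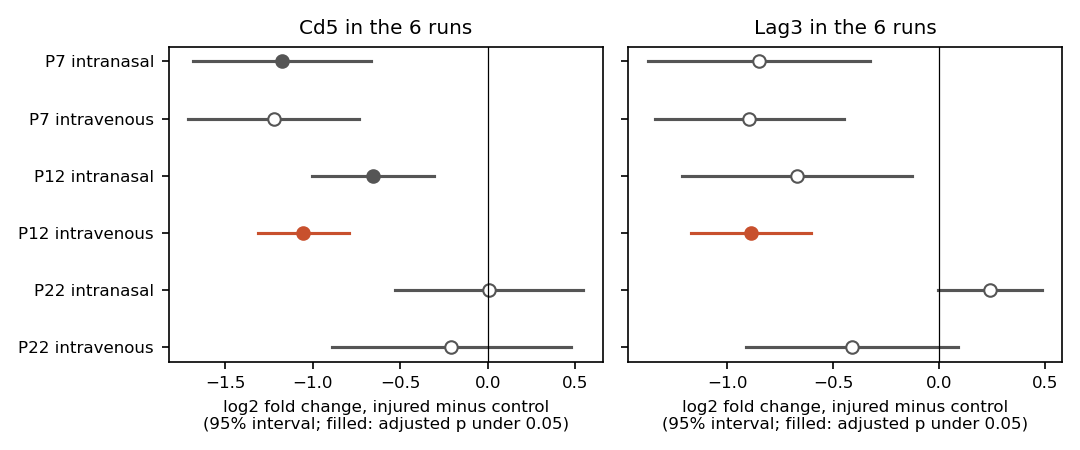
Log2 fold change of injured against control (x axis) with its 95% interval for Cd5 (left) and Lag3 (right) in each of the 6 runs (y axis), filled where the adjusted p was under 0.05. Values for Cd5 lie between -0.66 and -1.22 in the 4 runs at P7 and P12, and at 0.01 and -0.21 in the runs at P22.

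Cd5 and Lag3 are best known from lymphocytes. In these libraries the CD3 chain genes and Cd2 were near 0, while some other T and NK cell markers were not. The CD3 chain genes Cd3e, Cd3d and Cd3g had 17, 30 and 5 counts over the 6 libraries together, and Cd2 had 40. Control replicate 3 held the highest level of Cd3e, Cd3d and Cd2 (0.549, 0.863 and 0.942 CPM). Klrb1 and Gzmb had no count in any of the 6, and whether their reads could be counted was not tested. Of 40 T and NK cell markers, 18 were tested, and Cd5 was the only one that passed. The mean marker level on the log2 CPM scale was 1.05 to 1.57 in control and 1.16 to 1.37 in injured libraries. Cd6, the paralog of Cd5, was abundant at 106, 104 and 114 CPM in control and 97.7, 111 and 80.0 CPM in injured libraries, with overlapping groups and a log2 fold change of -0.17 ± 0.12. The kinase gene Lck (0.19 ± 0.17) and the co-receptor genes Cd8a (0.24 ± 0.44) and Cd8b (0.48 ± 0.33) had positive values that did not pass. Cd8a had 178, 181 and 109 counts in control and 227, 106 and 558 counts in injured libraries. For Lck these were 71, 72 and 51 against 77, 60 and 218 counts. The B cell gene Ms4a1 had 7 counts over the 6 libraries. In the B cell list, 2 of 9 tested members had positive values, against 7132 of all 13874 genes. The groups did not overlap in 2 of the 9, against 11.4 percent of all genes. The kinase gene Blk had -0.75 ± 0.21, the BAFF receptor gene Tnfrsf13c -1.07 ± 0.33 and the transcription factor gene Ebf1 0.41 ± 0.31.

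Of the 32 genes of the list of inhibitory immune receptors and their ligands, 25 were tested. Cd5 and Lag3 fell and none rose. At an unadjusted p under 0.05, 4 members were higher and 3 lower, against 616 and 592 of all 13874 genes. The median of the list was -0.10, and 5 of 25 members had positive values, against 7132 of all 13874 genes. In 7 of 25 the groups did not overlap, against 11.4 percent of all genes. Cd5 and Lag3 are among these 7. The lists were chosen with earlier results of these data known, so these counts do not test the family. Cd72, an inhibitory receptor gene, had -0.79 ± 0.21 (edgeR adjusted p = 0.342). Lgals9, the gene of a ligand of the receptor TIM-3, had 0.28 ± 0.12 (edgeR adjusted p = 0.56).

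None of the tested genes that flank Cd5 and Lag3 in the rat annotation of assembly GRCr8 passed, and Vwce, Pga5 and 3 non-coding neighbours that were not matched are not analysed here. Cd6 and Vps37c, a gene of endosomal sorting, lie on either side of Cd5, and Vps37c had -0.03 ± 0.08. Around Lag3 lie Cd4, whose product is the co-receptor for MHC class II (-0.24 ± 0.16), Gpr162 (-0.54 ± 0.21), Ptms (-0.16 ± 0.13), Mlf2 (-0.16 ± 0.09) and Cops7a (-0.13 ± 0.08). All of those tested had negative values, smaller than those of Cd5 and Lag3. No annotated gene overlapped either of the 2.

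The bases before the annotated start of Cd5 are shown because Cd5 had the smallest p of the comparison. They are the 250 bases upstream of the start in RefSeq on assembly GRCr8, chr1:216811210-216811459, minus strand, with capitals marking the letters GAGGAAGT, which resemble the site of the myeloid and B cell factor PU.1.
Cd5: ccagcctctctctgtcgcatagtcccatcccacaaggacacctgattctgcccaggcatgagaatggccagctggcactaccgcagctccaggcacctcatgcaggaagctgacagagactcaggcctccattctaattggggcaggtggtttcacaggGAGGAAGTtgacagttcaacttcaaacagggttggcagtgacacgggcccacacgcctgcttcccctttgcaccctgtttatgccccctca
These letters were chosen after the sequence had been seen, and their first base lies 91 bases before the start. On either strand, GAGGAAGT was found in 2.04 percent of 33469 upstream windows of the same length. The AP-1 letters TGAGTCA (4.05 percent of windows), the E-box CACGTG (5.59 percent) and the ETS letters CCGGAAGT (3.1 percent) were not found in the Cd5 window on either strand.

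The width of the intervals shows which sizes of change these libraries could have missed. In 11674 of 13874 genes (84.1 percent) the 95% interval of the log2 fold change lay within 2-fold in both directions, and in 8945 (64.5 percent) within 1.5-fold. Among the 11572 genes whose mean log2 CPM was 1 or more, 10947 (94.6 percent) were within 2-fold. The median half-width was 0.29 on the log2 scale, against 0.318 to 0.443 in the other runs.

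Genes of microglial identity did not pass in either direction. P2ry12, a purinergic receptor of surveying microglia, was at 2170, 1980 and 2300 CPM in control and 2390, 2130 and 2240 CPM in injured libraries (0.07 ± 0.11). Cx3cr1, the fractalkine receptor, was at 1950, 1590 and 1910 against 1750, 1910 and 1790 CPM (0.00 ± 0.09). The groups overlapped for both. Tmem119, a microglial membrane protein, was at 349, 458 and 400 CPM in control and 589, 739 and 666 CPM in injured libraries. The groups did not overlap for Tmem119, but the value of 0.72 ± 0.30 did not pass (edgeR adjusted p = 0.546). Sall1, a transcription factor that maintains microglial identity, had 0.22 ± 0.07 and Csf1r -0.10 ± 0.08. Crybb1, a gene of early postnatal microglia, had -0.79 ± 0.24 (-1.22 and an edgeR adjusted p of 0.0318 without injured replicate 2). Of 27 homeostatic genes tested, 0 passed in edgeR and in DESeq2, 3 were higher and 4 lower at an unadjusted p under 0.05, and the median was -0.08. At that p, 616 of all 13874 genes were higher and 592 lower.

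The IL-1 pathway itself showed no gene that passed. Il1b was at 309, 189 and 148 CPM in control and 154, 244 and 147 CPM in injured libraries (-0.25 ± 0.27), so the groups overlapped and control replicate 1 was highest. Il1a had -0.48 ± 0.41, the antagonist gene Il1rn 0.22 ± 0.22 and Il1rap 0.15 ± 0.18. Il1r1 was at 17.9, 15.1 and 4.94 CPM in control and 16.9, 22 and 19.3 CPM in injured libraries, with control replicate 3 far below the rest (0.59 ± 0.35). Of 26 IL-1 signalling genes tested, 0 passed in edgeR and in DESeq2 and 0 reached an unadjusted p under 0.05, with a median of -0.05. Tnf had no count in any of the 15 libraries, where 3 counts would be 0.0697 to 0.235 CPM. The annotation is not given, and whether reads of Tnf could be counted in its entry was not tested. Arg1 had 8 counts over the 6 libraries and was not tested. Ptgs2, the cyclooxygenase gene that IL-1β induces in many cells, was at 4.39 to 7.26 CPM in control and 5.68 to 6.97 CPM in injured libraries (0.22 ± 0.25).

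Inflammatory, repair and disease-associated genes did not pass either. Among 27 inflammatory cytokines and NF-kB targets the median was -0.02, with 1 higher and 2 lower at an unadjusted p under 0.05, and among 14 repair or anti-inflammatory markers it was -0.03, with 0 either way. None of these passed in edgeR or DESeq2. Mrc1, the mannose receptor gene, had 0.10 ± 0.12, the growth factor gene Igf1 0.26 ± 0.17 and Lgals3, the galectin-3 gene, -0.16 ± 0.13. Of 29 genes of disease-associated and axon-tract microglia, 1 was higher and 5 were lower at an unadjusted p under 0.05, and 0 passed in either tool. Their median was -0.13, and 13 of 29 had positive values. At that p, 616 of all 13874 genes were higher and 592 lower. Csf1, the growth factor that binds Csf1r, was at 36, 31.6 and 29.0 CPM in control and 45.3, 42.0 and 55.6 CPM in injured libraries. The groups did not overlap, and the value was 0.57 ± 0.17 (edgeR adjusted p = 0.382). Itgax, the CD11c gene, had -0.55 ± 0.18. Spp1, the osteopontin gene, ranged from 143 to 259 CPM in control and from 96.2 to 426 CPM in injured libraries (0.34 ± 0.43).

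Among 15 targets of the lipid-sensing LXR receptors, 14 had negative values and 3 an unadjusted p under 0.05, all lower, with a median of -0.12, and 0 passed in edgeR or DESeq2. Over all 13874 genes, 7132 had positive values, and 616 were higher and 592 lower at that p. Apoe, the main lipid carrier made by microglia, was at 4420, 5870 and 4420 CPM in control and 3020, 3880 and 3690 CPM in injured libraries. Every injured library was below every control library for Apoe, at -0.48 ± 0.16 (edgeR adjusted p = 0.458). Mylip, a ubiquitin ligase gene, had -0.23 ± 0.07, Apoc1 -0.55 ± 0.23 and the cholesterol exporter gene Abcg1 -0.33 ± 0.16. In the complement and phagocytosis list, 21 of 27 members had negative values, the C5a receptor gene C5ar1 (-0.35 ± 0.12) and the integrin gene Itgb2 (-0.21 ± 0.07) leading by p, and 0 passed in either tool (1 higher and 4 lower at an unadjusted p under 0.05).

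In the cell cycle list, 33 of 41 members had positive values, 8 were higher and 0 lower at an unadjusted p under 0.05, and the median was 0.07. Over all 13874 genes, 7132 had positive values, and 616 were higher and 592 lower at that p. None passed in edgeR, and DESeq2 called Cdc6 higher. Cdc6, which loads the replicative helicase onto DNA, was at 5.69, 6.41 and 5.49 CPM in control and 9.85, 8.38 and 8.96 CPM in injured libraries (0.62 ± 0.12, edgeR adjusted p = 0.181). The groups did not overlap. The origin recognition gene Orc1 had 0.74 ± 0.17, the helicase gene Mcm4 0.27 ± 0.09, the ribonucleotide reductase gene Rrm2 0.43 ± 0.14 and the proliferation marker Mki67 0.23 ± 0.10.

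Among genes that did not pass, had groups apart, a mean log2 CPM no lower than 1 and a symbol that is not provisional, the smallest p belonged to Fez2 (-0.58 ± 0.10) and Pitrm1, a mitochondrial peptidase gene (0.35 ± 0.06), both with an edgeR adjusted p of 0.085 (0.0454 for Fez2 without control replicate 2). P2rx4, an ATP-gated channel of activated microglia, was at 108, 118 and 117 CPM in control and 151, 192 and 152 CPM in injured libraries (0.52 ± 0.10, edgeR adjusted p = 0.0951). Oasl2, an interferon-inducible gene, had 0.41 ± 0.10 and the DNA repair gene Brca2 0.36 ± 0.08. Among those with lower values were the BMP antagonist gene Grem1 (-1.13 ± 0.22), the desmosomal gene Dsp (-1.63 ± 0.32) and the calcium-binding protein gene Cabp7 (-1.07 ± 0.23). DESeq2 called Fez2, Pitrm1, P2rx4, Grem1, Dsp and Cabp7.

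Grem1 and Cabp7 passed in the P12 intranasal run. Grem1 was at 12.8, 9.89 and 8.24 CPM in control and 4.73, 4.95 and 4.55 CPM in injured libraries of the intravenous run, and at 6.14, 9.82 and 7.31 against 1.23, 3.22 and 2.01 CPM in the intranasal run (-1.84 ± 0.41, edgeR adjusted p = 0.0269). Cabp7 was at 10.5, 11.6 and 13.1 against 5.57, 5.79 and 5.41 CPM in the intravenous run, and at 14.4, 12.0 and 11.6 against 1.7, 2.71 and 3.02 CPM in the intranasal run (-2.34 ± 0.26, edgeR adjusted p = 0.000649). Injured libraries were below control libraries in both runs for both genes. The difference between the runs was 0.72 ± 0.41 for Grem1 and 1.28 ± 0.36 for Cabp7, and neither passed (edgeR adjusted p = 0.479 and 0.138).

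The remaining microglial and signalling lists held no gene that passed in edgeR or DESeq2. Their medians ran from -0.04 for 26 microglial survival and lineage factors to 0.12 for 25 TGF-beta signalling genes. Among 29 interferon response genes the median was -0.01, and 1 was higher and 0 lower at an unadjusted p under 0.05. Among 22 antigen presentation genes the median was 0.02, with 0 either way, against 616 higher and 592 lower of all 13874 genes. Cholesterol synthesis had 0.05 (2 higher and 1 lower of 25). Glycolysis and hypoxia had -0.03 (1 higher and 0 lower of 23), with the phosphofructokinase gene Pfkp at 0.53 ± 0.16. The glucocorticoid response had 0.08 (2 higher and 0 lower of 17), with Fkbp5, a co-chaperone of the glucocorticoid receptor, at 0.32 ± 0.10. Wnt signalling had 0.01 (2 higher and 0 lower of 35). Control replicate 3 was the lowest of the 6 libraries for the glucocorticoid, TGF-beta and Wnt lists (mean log2 CPM of 3.57, 4.74 and 3.15).

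Markers of other immune and brain cells did not pass in edgeR or DESeq2, apart from Cd5 itself. Medians were -0.21 for 9 B cell, -0.17 for 12 dendritic cell, 0.17 for 14 monocyte, -0.02 for 15 neutrophil and 0.07 for 13 border-associated macrophage markers. At an unadjusted p under 0.05, 3 B cell and 4 dendritic cell markers were lower and 0 higher, and 1 monocyte marker was higher and 1 lower. The counts for all 13874 genes were 616 higher and 592 lower. The dendritic cell genes Irf4, a transcription factor, and Xcr1, a chemokine receptor, had -0.30 ± 0.10 and -0.71 ± 0.28. For neurons the median was 0.03, for astrocytes 0.04 and for oligodendrocyte precursors 0.00, with 0 members under that p in either direction.

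Genes of red blood cells and mast cells, which are cells outside the microglial lineage, had the list medians farthest from 0. Of 30 erythroid markers, 15 entries were tested, with a median of 0.86, 8 higher and 1 lower at an unadjusted p under 0.05, and 0 that passed in edgeR or DESeq2. Over all 13874 genes, 616 were higher and 592 lower at that p. The haemoglobin gene Hbb was at 58.4, 46.6 and 22.4 CPM in control and 79.6, 77.9 and 247 CPM in injured libraries. Its groups did not overlap, with injured replicate 3 highest and control replicate 3 lowest. The value was 1.66 ± 0.62 (edgeR adjusted p = 0.523), and Alas2, the first enzyme gene of erythroid haem synthesis, had 1.47 ± 0.72, also with injured replicate 3 highest (8.78 CPM) and control replicate 3 lowest (0.314 CPM). Without injured replicate 3 the list median was 0.60, without control replicate 3 it was 0.62 and without control replicate 1 it was 1.49. The mean erythroid level was 2.22 to 3.21 in control and 3.28 to 4.05 in injured libraries on the log2 CPM scale, and its part in other results was not tested. Counts of haemoglobin genes, which have near-identical copies, are uncertain.

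Mast cell markers went the other way, with a median of -0.68 over 11 tested genes, 6 lower and 0 higher at an unadjusted p under 0.05, and 0 that passed in edgeR or DESeq2. Over all 13874 genes, 592 were lower and 616 higher at that p. The tryptase gene Tpsb2 was at 6.47, 16.6 and 7.06 CPM in control and 3.09, 6.64 and 3.34 CPM in injured libraries (-1.24 ± 0.37). The carboxypeptidase gene Cpa3 was at 35.3, 79.2 and 66.7 against 29.7, 41.3 and 30.2 CPM (-0.84 ± 0.31), and the chymase gene Cma1 at 29.2, 54.2 and 43.1 against 18.7, 27.9 and 18.7 CPM (-0.96 ± 0.32). Groups overlapped for Tpsb2 and Cpa3 and did not for Cma1, and without control replicate 2, the highest for Tpsb2, Cpa3 and Cma1, the list median was -0.39. In the P22 intravenous run the same genes had positive values, 1.94 ± 0.65 for Tpsb2 and 1.42 ± 0.61 for Cpa3, and the difference between P12 and P22 was -3.15 ± 0.74 for Tpsb2 (edgeR adjusted p = 0.329) and -2.23 ± 0.65 for Cpa3 (0.497), neither of which passed.

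**Figure D4:**
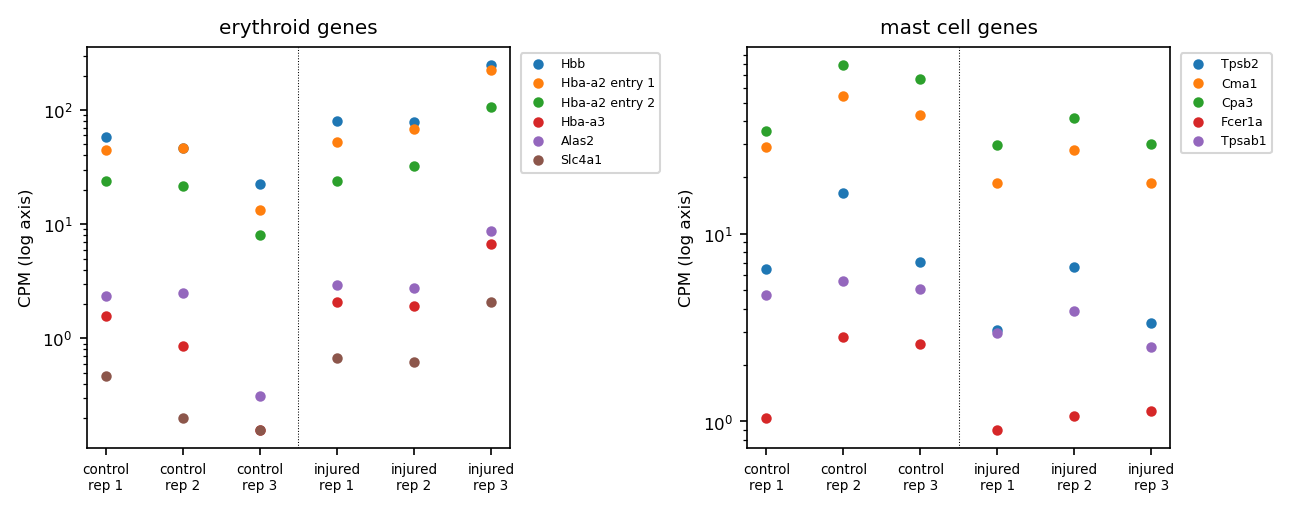
Points show CPM on a log axis for erythroid genes (left) and mast cell genes (right) in the 3 control and 3 injured libraries, with the 2 entries of Hba-a2 drawn separately. The erythroid genes drawn are highest in injured replicate 3 and lowest in control replicate 3, and Cpa3 and Cma1 are highest in control replicate 2.

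Markers of vessels were low in control replicate 3. The mean level of endothelial markers on the log2 CPM scale was 4.89 in that library and 5.98 to 6.25 in the other 5, and 14 of 15 tested members had positive values with a median of 0.34, which was 0.081 without control replicate 3 and 0.56 and 0.54 without control replicates 1 and 2. Cdh5, the VE-cadherin gene, was at 113, 96.2 and 55.2 CPM in control and 112, 130 and 111 CPM in injured libraries (0.41 ± 0.19), and Esam had 0.43 ± 0.21. No endothelial marker passed in edgeR or DESeq2, and 1 was higher at an unadjusted p under 0.05. Over all 13874 genes, 7132 had positive values and 616 were higher at that p. Control replicate 3 was also the lowest of the 6 libraries for mural, fibroblast and ependymal markers (means of 3.39, 3.79 and 2.72). The part of this library in other results was not tested beyond leaving it out.

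The P12 intranasal run, whose pups had the same IL-1β or PBS schedule and a sham through the nose, gave 383 of 13868 genes that passed (2.76 percent). Of its 222 higher genes, 0 passed in the intravenous run (17 with an unadjusted p under 0.05 in the same direction and 9 in the opposite), 131 (59 percent) had the same sign and the median was 0.03. Of its 161 lower genes, 159 were tested in the intravenous run, where 1 passed, which was Cd5, 62 (39 percent) had the same sign and the median was 0.09. In 211 of the 222 and 137 of the 159, the interval in the intravenous run lay within 2-fold. The injury effect itself differed between the 2 runs in 28 of 14605 genes (0.192 percent, edgeR), with 9 higher and 19 lower in the intravenous run.

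Myelin genes were among those with the higher value in the intravenous run. Mbp, the myelin basic protein gene, was at 142, 160 and 123 CPM in control and 127, 134 and 144 CPM in injured libraries of the intravenous run, and at 221, 202 and 211 against 59.9, 93.1 and 99.0 CPM in the intranasal run. The groups overlapped in the first and were far apart in the second, with -0.07 ± 0.15 against -1.33 ± 0.26. Mobp, another myelin gene, had 0.22 ± 0.23 against -1.79 ± 0.23. In the oligodendrocyte list 0 of 18 tested genes passed in the intravenous run by edgeR or DESeq2 (1 lower at an unadjusted p under 0.05, median 0.08). In the intranasal run 11 of 17 fell (median -1.33), against 161 of all 13868 genes tested there. The difference between the runs passed in 2. Markers of other cells also had lower medians in the intranasal run. These were -0.68 for mural cells (6 of 15 fell), -0.95 for ependymal cells (0 of 13) and -0.42 for astrocytes (2 of 17). They were -0.54 for fibroblasts (2 of 13 fell), -0.54 for oligodendrocyte precursors (0 of 13) and -0.28 for endothelial cells (1 of 15). Their part in the result was not tested. Ivns1abp, an influenza NS1A binding protein gene, had 0.61 ± 0.15 here and a route difference of 1.30 ± 0.23 (edgeR adjusted p = 0.0154).

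Plau, Arc and Cd8a were among the genes with the lower value in the intravenous run. Plau, the urokinase gene, was at 96.0, 77.7 and 76.5 CPM in control and 70.6, 91.8 and 77.8 CPM in injured libraries of the intravenous run (-0.06 ± 0.16), and at 53.2, 60.9 and 39.7 against 227, 136 and 152 CPM in the intranasal run (1.74 ± 0.31). Arc, an immediate early gene, had -0.44 ± 0.25 against 1.47 ± 0.27, and Cd8a 0.24 ± 0.44 against 2.43 ± 0.43. Injured libraries overlapped control libraries in the intravenous run for Plau, Arc and Cd8a and did not in the intranasal run. Snn differed by -0.89 ± 0.13 (edgeR adjusted p = 0.00212). In the immediate early and dissociation response list, 0 of 33 passed in the intravenous run by edgeR or DESeq2 (3 higher at an unadjusted p under 0.05, led by the heat shock gene Hspa1b at 0.92 ± 0.35). At that p, 616 of all 13874 genes were higher. In the intranasal run 9 of 33 rose, against 222 of all 13868 genes. Leaving out single libraries of the 2 runs left between 1 and 23 differences, with 1 left without injured replicate 1 of the intravenous run and 3 without its control replicate 2. The replicate block left 6 and DESeq2 gave 119.

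**Figure D5:**
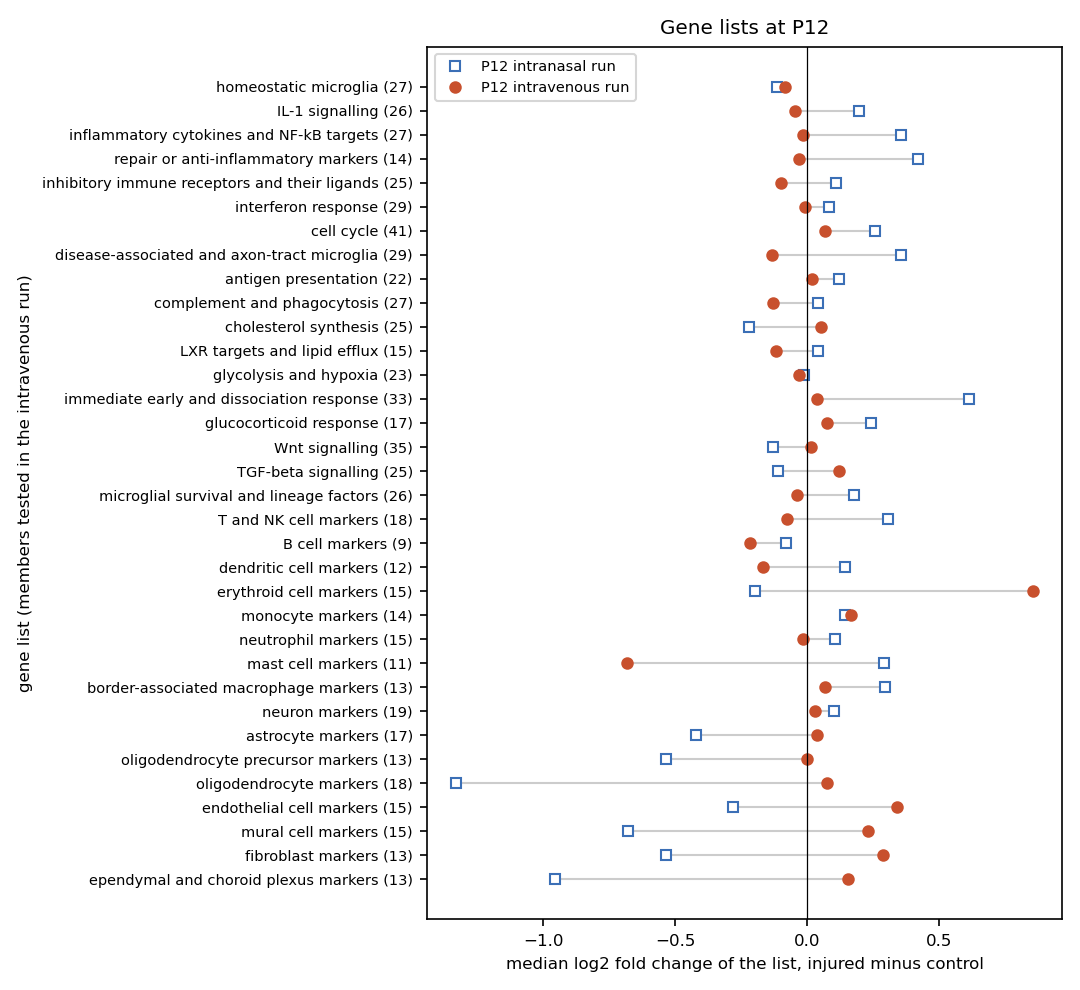
Median log2 fold change of injured against control (x axis) for each of the 34 gene lists (y axis, members tested in brackets) in the P12 intravenous run (filled circles) and the P12 intranasal run (open squares). Most circles lie near 0, apart from the erythroid (0.86) and mast cell (-0.68) lists, while oligodendrocyte markers lie at 0.08 in the intravenous and -1.33 in the intranasal run.

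Within the intravenous route, the injury effect at P12 differed from that at P7 in 2 of 14605 genes (0.0137 percent, edgeR). Ankrd55, which codes for an ankyrin repeat protein, was at 114, 111 and 115 CPM in control and 127, 85.2 and 92.8 CPM in injured libraries at P12, against 57.8, 64.6 and 68.0 and 8.54, 9.56 and 14.1 CPM at P7. The groups overlapped at P12 (-0.16 ± 0.13) and were far apart at P7 (-2.57 ± 0.21), a difference of 2.42 ± 0.32 (edgeR adjusted p = 0.000343). Gpr132, a lipid and proton sensing receptor gene, was at 3.03, 3.78 and 2.43 against 1.24, 2.31 and 1.7 CPM at P12 and at 2.5, 2.37 and 1.49 against 5.27, 7.31 and 5.71 CPM at P7. Injured libraries were below control libraries at P12 and above them at P7, with a difference of -2.36 ± 0.41 (edgeR adjusted p = 0.0271). Gpr132 no longer passed when injured replicate 1 or 3, or control replicate 1 or 2, was left out at P12, or when replicate 2 or 3 of either group was left out at P7 (adjusted p from 0.0501 to 0.184). Against P22 intravenous, 1 gene passed (0.00685 percent, edgeR), Adamts13. It still passed when any single library was left out, but not in the 12 libraries of both runs alone (edgeR adjusted p = 0.435). At P12 its level in the injured group came mainly from replicate 2. It was at 0.0522, 0 and 0 CPM in control and 0.0563, 46.6 and 1.25 CPM in injured libraries at P12, and at 53.1, 5.03 and 64.1 against 0.916, 0 and 0.0485 CPM at P22.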

How the data were processed

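The authors deposited a table of raw counts, whole numbers for 32623 genes in 90 libraries, with no normalization. The submitters' processing notes name STAR 2.7.2d, HTSeq 0.5.3, SAMtools and DESeq2 1.8.1, with no role or order given. Build, annotation and handling of strand are not given in the sources used here. Genes with near-identical or overlapping copies are therefore uncertain. Total counts in the 15 libraries ran from 13.4 to 42.5 M.

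Computed here, the 15 libraries of the run were fitted with a mean per group in edgeR 4.0.16 (R 4.3.3, limma 3.58.1), after filterByExpr (minimum count 10, minimum total 15) and TMM scaling, and tested with edgeR's quasi-likelihood test, adjusted by Benjamini and Hochberg with a threshold of 0.05. "Passed", "rose" and "fell" mean an adjusted p under 0.05 over all genes. The SE is the log2 fold change over the square root of F. CPM use the library size after filtering times the TMM factor. To compare injury effects between runs, the 36 libraries without cells were fitted together. The steps were tested on simulated data. Alternatives were DESeq2 1.42.0, its size factors, other filters (none, minimum count 50), a replicate block, other sets of libraries and leaving out each library.

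The members and lists were chosen with earlier results of these data known. Of 785 genes in 34 lists, 749 were matched by symbol or synonym (48 stand in more than 1 list), and the others were not analysed here. Genes were named by a rule. It takes every gene that passed, the 10 rises and 10 falls of smallest p with groups apart and a mean log2 CPM of at least 1, up to 4 members of smallest p per list with all erythroid and T and NK markers, a fixed panel of microglial and IL-1 genes, the 10 largest differences each way between runs, genes that passed in another run, and up to 3 neighbours on each side of Cd5 and Lag3. The text prints some of these, and a few genes are not reported here. Symbols are the gene names deposited with the counts. Neighbours and the synonyms used for list genes come from RefSeq on GRCr8, and Lag3 has no entry among the promoter sequences used.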

Additional observations from a re-analysis of the deposited data

Results flagged for a closer look

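The injury effect differed between the intravenous and intranasal runs at P12 in 28 genes, by the test of the difference itself in edgeR. The following genes are among them. Route coincides with the sequencing run, so these differences cannot be assigned to route. The value is the log2 fold change of injured against control in the intravenous run minus that in the intranasal run. It was 2.02 for Mobp, 1.48 for Fam124a, 1.30 for Ivns1abp and 1.27 for Mbp. It was 0.97 for Adarb1, an RNA editing enzyme gene, 0.81 for Bbs9 and 0.76 for Dagla, an endocannabinoid synthesis gene. On the other side it was -2.18 for Cd8a, -1.90 for Arc and -1.80 for Plau. It was -1.13 for Tmem150b, -1.04 for Rnf150 and -0.89 for Snn. It was -0.87 for Atp1b1, -0.85 for Txnrd3 and -0.84 for Myo1e. Of these genes only Snn passed in every alternative fit in edgeR and DESeq2 (highest adjusted p = 0.0178). For the others the highest adjusted p ran from 0.0506 for Plau to 0.152 for Cd8a.

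Within the intravenous route the difference between ages passed for Ankrd55 (2.42, P12 minus P7), for Gpr132 (-2.36, P12 minus P7) and for Adamts13 (16.4, P12 minus P22). Age coincides with the sequencing run as well. The Adamts13 value is a fitted one with groups near 0 counts and is no measure of size. A formal test for outlying samples was not run on the groups of 3 libraries, and single libraries were left out in turn instead.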

How the results depend on the processing

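The count of 2 genes that passed was 2 with DESeq2 size factors and with a minimum count of 50, 16 without a filter, 29 in DESeq2, 0 with the 6 libraries alone and 1, neither Cd5 nor Lag3, in the fit of the 36 libraries of all runs, where the adjusted p was 0.113 for Cd5 and 0.618 for Lag3. Leaving out single libraries gave 0 to 6. Both genes had negative values in every alternative. The log2 fold change ran from -0.97 to -1.18 for Cd5 and from -0.82 to -0.94 for Lag3.

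The replicate numbers showed no clear pairing of the samples. Deviations of same-numbered control and injured libraries correlated with -0.212, 0.313 and -0.111, and not every library correlated best with its own number. With 3 libraries per group, these values cannot exclude a pairing. With the replicate block 3 genes passed, 1 higher and 2 lower, with an adjusted p of 0.0097 for Cd5 and 0.0538 for Lag3, and the block within runs left 6 of the 28 route differences.

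Route differences numbered 15 without a filter, 119 in DESeq2, 18 with the 12 libraries of both runs, and 1 to 23 without single libraries. Of the intravenous run these were 1, 6 and 7 without injured replicates 1, 2 and 3, and 3 and 7 without control replicates 2 and 3. Of the intranasal run they were 5 and 13 without injured replicates 1 and 2, and 8 and 8 without control replicates 1 and 2. The difference between P12 and P7 numbered 4 without a filter, 7 in DESeq2 and 1 to 3 without single libraries. That between P12 and P22 numbered 3 in DESeq2, 0 with 12 libraries (1291 at an unadjusted p under 0.05) and 1 to 3 without single libraries. The cause was not tested.

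Signs changed only for values near 0 or for genes with 1 extreme library. Cx3cr1 had 0.00359 with a minimum count of 50, 0.0022 with the block, 0.00036 with 6 libraries, 0.0035 with 36 libraries and -0.096 to 0.054 without single libraries. Without single libraries, Vps37c ran from -0.076 to 0.0081 (positive without injured replicate 2) and Spp1 from -0.33 (without injured replicate 3) to 0.72. Likewise Il1b ran from -0.52 to 0.11 (positive without control replicate 1) and Il1rap from -0.042 (without control replicate 2) to 0.32. The Lag3 difference between P12 and P7 was -0.015 with 12 libraries and -0.0396 to 0.0905 without single libraries, and its route difference ran from -0.46 to 0.0063, the latter without injured replicate 2 of the intranasal run. The share of genes within 2-fold was 83.3 percent with the 6 libraries alone. It was 84.1 percent with the 15 libraries and 94.6 percent for genes whose mean log2 CPM was 1 or more, and how far depth sets this was not tested. The list median was 0.45 for monocyte markers without control replicate 1, -0.43 for B cell markers without injured replicate 2 and -0.19 for LXR targets without injured replicate 3.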
